A study of Mus musculus with 12 samples.

Results

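The secretory granule exocytosis machinery was followed here as 36 genes, chosen by name for their known parts in granule fusion and granule formation. No measured value entered the rule, but earlier results of these data were known when the genes were listed. They comprised 5 syntaxins, the SNAP-23 family (2 genes), 5 vesicle-associated membrane proteins (VAMPs), 2 Sec1/Munc18 proteins, 6 Rab GTPases, 5 Rab27 effectors and priming factors, 5 synaptotagmins, complexin 2 with the carrier protein Scamp1, and 4 granule biogenesis genes. A probe set, the group of short probes that reads 1 transcript, was taken when its annotated symbol was exactly that of a member. All 36 genes had probe sets, 91 in all, 69 among the 22626 of chip A and 22 among the 22511 of chip B, out of 18193 genes with a symbol of their own. The arrays were Affymetrix MOE430A (chip A) and MOE430B (chip B), and each of 6 cultures was hybridised once to each chip, which makes the culture the unit of replication. The mature mast cells were cultures M2, M4 and M6, grown for 57 to 110 days, and the mast cell precursors were M1, M3 and M5, grown for 14 to 16 days. All came from mouse bone marrow of femur and fibula and were kept in RPMI medium with interleukin-3 (IL-3), with no strain, allele or stimulus named. M6 among the mature cultures and M1 among the precursors were labelled female, and the others male. The cultures were estimated to be about 80% pure, with stromal cells, monocytes and macrophages named as possible other cells. The labels do not say whether the cultures came from separate animals, so that p-values measure only the spread between these cultures. The values are signal per probe set in bulk RNA, in which fewer cells of a type and less RNA per cell cannot be told apart.

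Mast cells store histamine, proteases and other mediators in granules and release them within minutes of activation. A granule fuses with the plasma membrane when a VAMP on the granule zips with a syntaxin and a SNAP protein on the target membrane, a complex of SNARE proteins that Sec1/Munc18 proteins help to assemble. Rab GTPases with their effectors bring granules to the membrane, Munc13 proteins prime them, and synaptotagmins and complexins tie fusion to calcium. Before that, adaptor and biogenesis factors such as AP-3 and the Hermansky-Pudlak proteins sort cargo into the forming granule.

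Promoter sequence was searched for 29 of the members, as 37 windows of 300 bases that run from 250 bases before to 50 bases after an annotated start (RefSeq, build GRCm38.p6). Rab27b was left out of these counts, while the windows set beside them were not restricted. The windows were searched on both strands for CACGTG, the E-box that MITF, a transcription factor of mast cells and melanocytes, and several other factors bind. It was present in 8 of the 37 windows (21.6%), against 7.15% of all 32851 windows and 7.84% of the 21263 windows of protein-coding genes. The 8 members were Hps1, Mlph, Rab27a, Rab5a, Scamp1, Stx6, Stxbp2 and Vamp4. The member windows also had a higher median share of G and C (61.3%, against 52.7% in all windows and 56.3% in those of protein-coding genes), and base composition was not taken into account. The GC box GGGCGG was in 22 member windows (59.5%, against 35.7% of all). The cyclic AMP response element TGACGTCA was in 3 member windows (8.11%, against 1.79%), those of Hps4, Rab5a and Stxbp3. Another E-box spelling, CATGTG, went the other way from CACGTG, in 1 window (2.7%, against 14.2%). GATAA was found in 5 (13.5%, against 25.4%), the AP-1 site TGACTCA in 2 (5.41%, against 5.2%) and CCAAT in 13 (35.1%, against 37.4%). A match is a stretch of letters and not a measured binding site. The sequences below are those of the members with an unadjusted p under 0.05 in the comparison of stages, followed by Stxbp2, whose E-box lies nearest to a start among those shown. Capitals mark CACGTG, TGACGTCA and GGGCGG on either strand, so that a GC box on the other strand reads CCGCCC. Where a gene had more than 1 start, the window with the E-box is shown.
Syt9: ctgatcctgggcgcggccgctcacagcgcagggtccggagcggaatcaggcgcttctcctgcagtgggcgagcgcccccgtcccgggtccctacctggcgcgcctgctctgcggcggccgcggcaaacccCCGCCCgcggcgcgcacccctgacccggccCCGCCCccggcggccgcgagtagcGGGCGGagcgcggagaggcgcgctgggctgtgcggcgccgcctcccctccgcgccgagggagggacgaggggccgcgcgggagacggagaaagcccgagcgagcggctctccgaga
Hps4: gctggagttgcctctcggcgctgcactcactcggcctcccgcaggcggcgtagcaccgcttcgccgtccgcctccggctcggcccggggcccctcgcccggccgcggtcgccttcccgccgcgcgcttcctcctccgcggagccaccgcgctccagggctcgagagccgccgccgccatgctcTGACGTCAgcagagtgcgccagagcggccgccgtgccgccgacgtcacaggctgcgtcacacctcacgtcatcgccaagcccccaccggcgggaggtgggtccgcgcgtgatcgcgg
Vamp4: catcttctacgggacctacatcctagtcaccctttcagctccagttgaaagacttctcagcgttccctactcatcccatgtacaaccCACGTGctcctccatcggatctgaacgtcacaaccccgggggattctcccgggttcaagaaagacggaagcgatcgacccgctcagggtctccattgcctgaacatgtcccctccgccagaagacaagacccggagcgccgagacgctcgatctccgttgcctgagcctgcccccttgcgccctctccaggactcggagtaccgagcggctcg
Rab3d: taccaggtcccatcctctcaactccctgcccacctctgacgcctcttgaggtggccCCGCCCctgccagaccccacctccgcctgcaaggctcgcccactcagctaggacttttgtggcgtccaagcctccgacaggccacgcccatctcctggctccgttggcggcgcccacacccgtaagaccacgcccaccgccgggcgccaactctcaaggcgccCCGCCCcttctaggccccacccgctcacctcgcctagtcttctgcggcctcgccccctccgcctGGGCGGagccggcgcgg
Rab27a: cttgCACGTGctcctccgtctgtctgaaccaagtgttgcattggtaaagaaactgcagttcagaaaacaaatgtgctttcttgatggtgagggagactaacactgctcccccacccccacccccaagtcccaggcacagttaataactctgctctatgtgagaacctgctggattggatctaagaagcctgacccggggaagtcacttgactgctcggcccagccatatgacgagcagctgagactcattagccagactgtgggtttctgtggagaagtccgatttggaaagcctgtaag
Stxbp2: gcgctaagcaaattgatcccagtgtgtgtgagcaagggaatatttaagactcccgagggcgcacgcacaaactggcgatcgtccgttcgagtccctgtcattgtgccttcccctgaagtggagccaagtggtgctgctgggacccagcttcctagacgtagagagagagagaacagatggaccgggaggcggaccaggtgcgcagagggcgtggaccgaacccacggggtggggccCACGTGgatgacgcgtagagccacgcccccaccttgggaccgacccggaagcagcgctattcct
The windows are chr7:107370540-107370839 (Syt9, plus strand), chr5:112342845-112343144 (Hps4, plus), chr1:162570265-162570564 (Vamp4, plus), chr9:21918134-21918433 (Rab3d, minus), chr9:73063898-73064197 (Rab27a, plus) and chr8:3630859-3631158 (Stxbp2, plus). The E-box began 14 bases before the start in Stxbp2, 163 in Vamp4 and 246 in Rab27a. No E-box of this spelling was in the windows of Syt9, Hps4 or Rab3d.

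Most of the machinery gave signal at both stages, and none of its genes passed the test between them. After a filter that kept a set when at least 3 of the 6 arrays lay above the median of the chip's table, 63 of the 91 member sets remained (46 on chip A, 17 on chip B), for 31 of the 36 genes. Differences are in log2 signal, after values below a floor, the 30th percentile of a chip's values (247 for chip A, 359 for chip B), had been raised to it. In limma with Benjamini-Hochberg adjustment over all kept sets of a chip, 0 member sets had an adjusted p under 0.05 in either direction, where the test called 0.527% of all kept chip A sets and 0.0926% of those of chip B. At an unadjusted p under 0.05, 2 of the 46 member sets on chip A were higher in the mature cultures (Syt9 and Hps4; 2.78% of all sets) and 2 were lower (Vamp4 and Rab3d; 3.81%). On chip B, 1 of 17 was lower (Rab27a; 3.32% of all sets) and 0 were higher (3.1%). In either direction that was 8.7% of the chip A member sets and 5.88% of those of chip B, near the 6.59% and 6.42% of all sets. The values of the mature and precursor cultures did not overlap in 8 of 46 member sets on chip A (17.4%, against 12.2% of all) and in 2 of 17 on chip B (11.8%, against 12%). On chip A 5 of these were higher in the mature cultures (6.14% of all sets were) and 3 lower (6.06%), and on chip B 1 was higher (6.17%) and 1 lower (5.83%). Both chip A counts include Syt9. That set passed the filter through mature cultures alone, which fixed it in advance as higher and without overlap.

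The median of the members lay near 0. With 1 set per gene, the brightest, the median difference of the 31 genes was -0.026 on the log2 scale, mature minus precursor, against 0.0022 over all 11769 genes with a kept set. Of the 31, 14 lay above 0 and 17 below, where 50.2% of all genes lay above. The 95% interval of the difference stayed within a 2-fold change either way for 18 of the 31 (58.1%), against 52.3% of all genes. For the other 13 the cultures could not bound the difference to less than 2-fold. The SD among cultures of a group had a median of 0.29 over the members and 0.38 over all genes. No culture stood apart for the whole set: the median member level, relative to each gene's own mean, was -0.016, 0.028 and -0.0064 in mature M2, M4 and M6, against 0.063, 0.013 and 0.032 in precursors M1, M3 and M5.

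**Figure D1:**
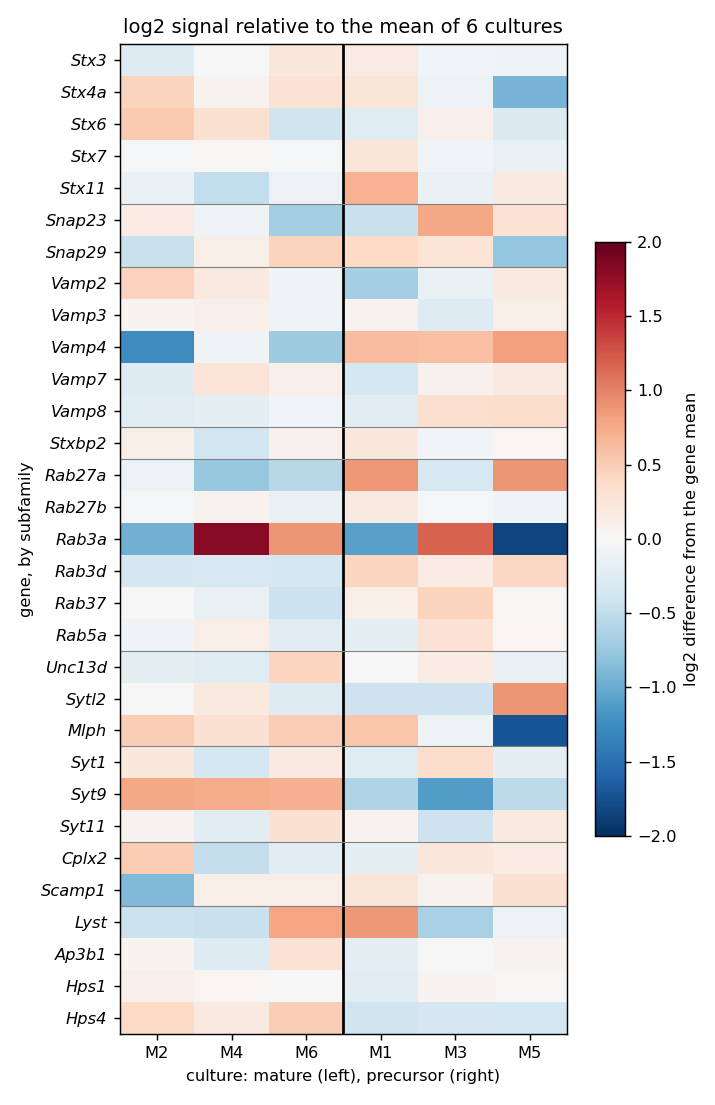
Log2 signal of the brightest kept probe set of 31 members, relative to its mean over 6 cultures, with mature M2, M4 and M6 left of the line and precursors M1, M3 and M5 right of it. Colours run from blue (below the mean) to red (above), between -1.83 and 1.82, both reached by Rab3a, and rows are grouped by subfamily.

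Monocyte and macrophage markers separated the stages, as did 1 measure of RNA quality on both chips and another on chip B. Other markers did so in part. The 9 mast cell markers summed to 469030 to 837510 signal units on chip A in the mature cultures and 473700 to 574660 in the precursors, and their ranges overlapped. These sums rest on the brightest markers. By the brightest kept set of each, 8 of the 9 lay above 0 and 1, Hdc, below. Hdc, the enzyme that makes histamine, fell in the mature cultures, with a log2 difference of -2.62 (limma adjusted p 0.0134). Of the 8, Cma1 differed by 0.63, without overlap and higher in the mature cultures, but was not called (limma adjusted p 0.678). The 10 monocyte and macrophage markers summed to 7517 to 10301 units in the mature cultures and 46802 to 90238 in the precursors, with Mpeg1 at the floor in all 3 mature cultures. By the brightest kept set all 10 lay below 0 and 7 were called, while Fcgr1 (-0.34) overlapped between the stages. The 10 neutrophil markers summed to 2506 to 4765 units in the mature cultures and 59161 to 288350 in the precursors. Chil3 was at the floor in all mature cultures and high in all precursors, and it made up 56623 of the 59161 units of precursor M3. For each of the other 9, M3 lay within or below the mature range while M1 and M5 were above it. S100a8 and Prtn3 were at the floor in all mature cultures and in M3. The 8 stromal markers summed to 5641 to 8914 units in the mature cultures and 14289 to 21632 in the precursors, a sum carried by Igfbp4, with 2735 to 6055 units in the mature cultures and 11496 to 18827 in the precursors. The other 3 stromal genes that passed the filter, Col1a2, Lepr and Sparc, differed by 0.17, 0.22 and 0.33 and were not called, and on chip A Pdgfrb and Sparc were at the floor in all 6 cultures. Col1a1 did not pass the filter and went the other way from Igfbp4. Its brighter set had 508, 509 and 691 units in the mature cultures, against 411, 336 and 317 in the precursors, without overlap. The 2 of 4 basophil markers on chip A summed to 880 to 2580 units in the mature cultures and 1857 to 42254 in the precursors, with M3 inside the mature range. On chip B the basophil marker Cd200r3 had 11751, 6184 and 6401 units in the mature cultures, against 15546, 16068 and 17772 in the precursors. M3 lay above the mature range there (limma adjusted p 0.265). Its other set differed by -1.20, also without overlap. The ratio of 3' to 5' signal of the actin control, which rises as RNA is degraded, was 9.73, 10.1 and 9.84 on chip A in mature M2, M4 and M6, against 6.34, 7.04 and 4.81 in precursors M1, M3 and M5. The same ratio of the Gapdh control on chip A was 19.3, 12.8 and 14.3 in the mature cultures, against 9.11, 13.5 and 9.39 in the precursors, and overlapped. On chip B neither ratio overlapped. Actin had 8.66, 9.12 and 10.8 in the mature cultures, against 5.61, 7.25 and 4.87 in the precursors. Gapdh had 22, 16.8 and 20 in the mature cultures, against 9.44, 13.7 and 12 in the precursors. The part of these other cells and of RNA quality in the member values was not tested. Median signal per array ran from 536 to 695 for chip A, and from 819 to 916 for chip B, with M6 the highest on both. Precision is limited by having 3 arrays of a chip per stage.

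Among the VAMPs, the granule and vesicle SNAREs, Vamp4 had the lowest p and the other 4 genes differed by under 0.5 on the log2 scale in their brightest sets. Vamp4, known from the trans-Golgi network, had 978, 2206 and 1412 signal units in mature M2, M4 and M6, against 3570, 3504 and 4104 in precursors M1, M3 and M5, on chip A. Each mature culture was below each precursor culture, and M2 was the lowest. The log2 means were 10.50 ± 0.59 in mature and 11.86 ± 0.12 in precursor cultures (SD, n = 3 each), a difference of -1.36 (SE 0.31, 95% interval -2.04 to -0.68). Its adjusted p in limma was 0.119 (unadjusted p 0.00111), so that it did not pass. A further Vamp4 set differed by -0.035 (95% interval of -0.87 to 0.80), and another was at or under the floor in all 6 cultures. Vamp8, the R-SNARE of mast cell granule release, had 11309, 11409 and 12558 units in the mature cultures, against 11365, 16274 and 16748 in the precursors. M1 sat with the mature cultures, and the difference was -0.31 (interval -0.83 to 0.20). Vamp3 (cellubrevin, of recycling endosomes) differed by 0.052 in its brightest set, and its 5 kept sets ran from -0.14 to 0.052. Vamp2 differed by 0.40 (-0.42 to 1.22) and Vamp7, of late endosomes and lysosomes, by 0.061 and 0.43 in its 2 sets.

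None of the target-membrane SNAREs passed the test. Stx3, a plasma membrane and granule syntaxin, had 10749, 12837 and 14915 units in the mature cultures, against 14429, 12413 and 12200 in the precursors. The groups overlapped fully, and the difference was -0.029 (interval -0.53 to 0.47). The other 2 kept Stx3 sets differed by 0.96 (interval -0.19 to 2.11) and -0.18 (-0.81 to 0.44). Stx4a, the plasma membrane syntaxin, differed by 0.53 (-0.15 to 1.22), with 5857, 4544 and 5284 units in the mature cultures, against 5088, 4033 and 2263 in the precursors, where M5 was lowest. Stx6, of the trans-Golgi network and endosomes, differed by 0.28, 0.30 and 0.23 in its 3 sets. In the set without overlap it had 1196, 1517 and 1198 units in the mature cultures, against 1091, 1153 and 931 in the precursors (adjusted p 0.891). Stx7, of late endosomes, differed by -0.026 (-0.51 to 0.46). Stx11, whose loss causes familial hemophagocytic lymphohistiocytosis in people, differed by -0.48 (interval -1.03 to 0.06) in its brightest set and 0.016 in the other. Snap23, the partner of Vamp8 and syntaxins in mast cell degranulation, had 4160, 3519 and 2319 units in the mature cultures, against 2733, 6371 and 4567 in the precursors. M1 lay among the mature values of this set. Its 3 sets differed by -0.41, -0.21 and -0.12. Snap29 differed by 0.073 and -0.032.

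No factor that docks or primes the SNAREs passed either. Stxbp2 (Munc18-2), the syntaxin partner needed for mast cell and lymphocyte secretion, differed by -0.12, -0.15 and -0.31 in its 3 sets. In the last of these it had 2893, 2334 and 2810 units in the mature cultures, against 3287, 3320 and 3327 in the precursors. The groups did not overlap, and the precursor values were close to each other, with an SD of 0.0092 on the log2 scale (adjusted p 0.868). Stxbp3 (Munc18-3) did not pass the filter, with 468, 545 and 546 units in the mature cultures, against 789, 517 and 575 in the precursors. Unc13d (Munc13-4), the priming factor missing in a form of hemophagocytic lymphohistiocytosis, had 4914, 4725 and 7528 units in the mature cultures, against 5545, 6224 and 5136 in the precursors. It differed by -0.0067 (interval -0.54 to 0.53).

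**Figure D2:**
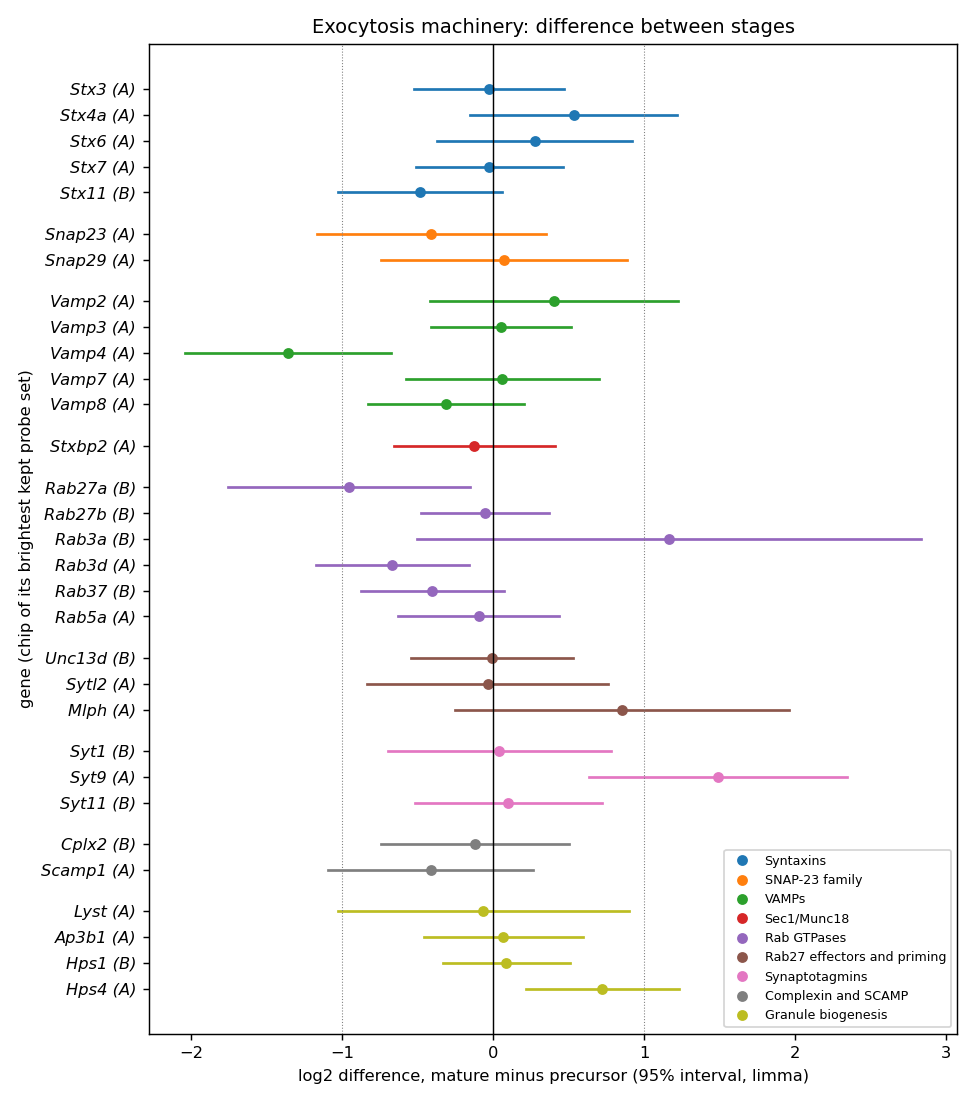
Difference in log2 signal, mature minus precursor, for the brightest kept probe set of 31 members (points) with its 95% interval (lines), by subfamily, with A or B the chip. Dotted lines mark a 2-fold change. The intervals of Syt9 and Hps4 lie above 0, those of Vamp4, Rab3d and Rab27a below it, and all others span it.

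None of the Rab GTPases that carry granules to the membrane passed the test. Of the 6 brightest sets 5 lay below 0, where 50.2% of all genes lay above it. Rab27a, Rab27b, Rab3d and Rab37 each also had a kept set above 0. The brightest set was taken over both chips although chip B read higher. For Rab27a, Rab27b and Rab37 it was a chip B set below 0. Their brightest kept chip A sets lay above 0, at 0.58, 0.097 and 0.41, so that the count of Rabs below 0 depends on the chip. Rab3d, found on granules of exocrine and hematopoietic cells, had 1789, 1817 and 1774 units in the mature cultures, against 3045, 2525 and 3003 in the precursors. All mature values lay below all precursor values, a difference of -0.67 (SE 0.23, interval -1.17 to -0.16, adjusted p 0.491). Its 3 other kept sets differed by 0.094, -0.011 and 0.52. Rab27a, mutated in Griscelli syndrome, had 2429, 1568 and 1789 units in the mature cultures on chip B, against 4825, 2103 and 4877 in the precursors. M3 lay among the mature values, and the difference was -0.95 (interval -1.76 to -0.15, adjusted p 0.681). On chip A a Rab27a set went the other way without overlap, with 903, 898 and 693 units in the mature cultures, against 536, 465 and 678 in the precursors, a difference of 0.58 (-0.17 to 1.32). Rab27b, a regulator of mast cell degranulation, differed by -0.054 in its brightest set (interval -0.48 to 0.37). Another Rab27b set did not overlap, with 1404, 1685 and 1179 units in the mature cultures, against 904, 1116 and 779 in the precursors, a difference of 0.61 with an adjusted p of 0.748. The remaining 2 sets of this gene differed by 0.097 and -0.045. Rab37, a granule Rab of mast cells, had 9648, 8758 and 7221 units on chip B in the mature cultures, against 10643, 13305 and 9955 in the precursors, a difference of -0.40 with an adjusted p of 0.788. Its chip A set differed by 0.41. Rab3a varied most between cultures among the brightest Rab sets, with 2835, 19441 and 10078 units in the mature cultures, against 2576, 12407 and 1547 in the precursors. The highest culture was 12.6 times the lowest, and the difference of 1.16 had an interval of -0.51 to 2.83. The second Rab3a set, on chip A, spanned 6.22-fold between cultures and differed by 0.54. Rab5a, of early endosomes, differed by -0.096.

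Among the Rab27 effectors 2 of 4 passed the filter. Sytl2, a synaptotagmin-like effector of Rab27, differed by -0.037 (-0.84 to 0.76). Mlph (melanophilin), which links Rab27a to myosin Va in melanocytes, had 1150, 1009 and 1151 units in the mature cultures, against 1205, 762 and 243 in the precursors. M5 was the lowest culture, just under the floor and raised to it, and M1 the highest. The difference of 0.85 had an interval of -0.26 to 1.96, and was 0.20 without M5 and 1.35 without M1. The Rab27 effector Sytl4 (granuphilin) did not pass the filter, with at most 395 units. Exph5 (Slac2-b), another such effector, had 1668, 1261 and 267 units in the mature cultures, against 731, 389 and 278 in the precursors, and did not pass either.

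Of the synaptotagmins, which sense calcium or bind the membrane at fusion, Syt9 had the lowest p. Syt9 had 918, 897 and 876 units in the mature cultures, against 354, 71.9 and 372 in the precursors. All mature values lay above all precursor values, and M3 was below the floor of 247. The log2 difference was 1.49 (SE 0.39, interval 0.64 to 2.34), on values with M3 set to the floor, with an adjusted p of 0.197 (unadjusted p 0.00278). This was the single kept member set that passed the filter through mature cultures alone, so that it had to be higher in them. Syt1 differed by 0.042 and Syt11, which lacks calcium binding, by 0.10, 0.023 and 0.99 in its 3 sets. In the last, M5 had 65.6 units, below the floor, against 741 and 1058 units in the other precursors. Syt2, known as a calcium sensor of mast cell granules, was at or near the floor: 233, 94.6 and 512 units in its brightest set on the mature arrays and 107, 109 and 200 on the precursor arrays. Syt3 read 79.2, 40.9 and 488 units in the mature cultures and 26.6, 39.7 and 167 in the precursors. For both genes M6 was the highest culture, as it was in 29% of all kept chip A sets, and neither passed the filter.

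**Figure D3:**
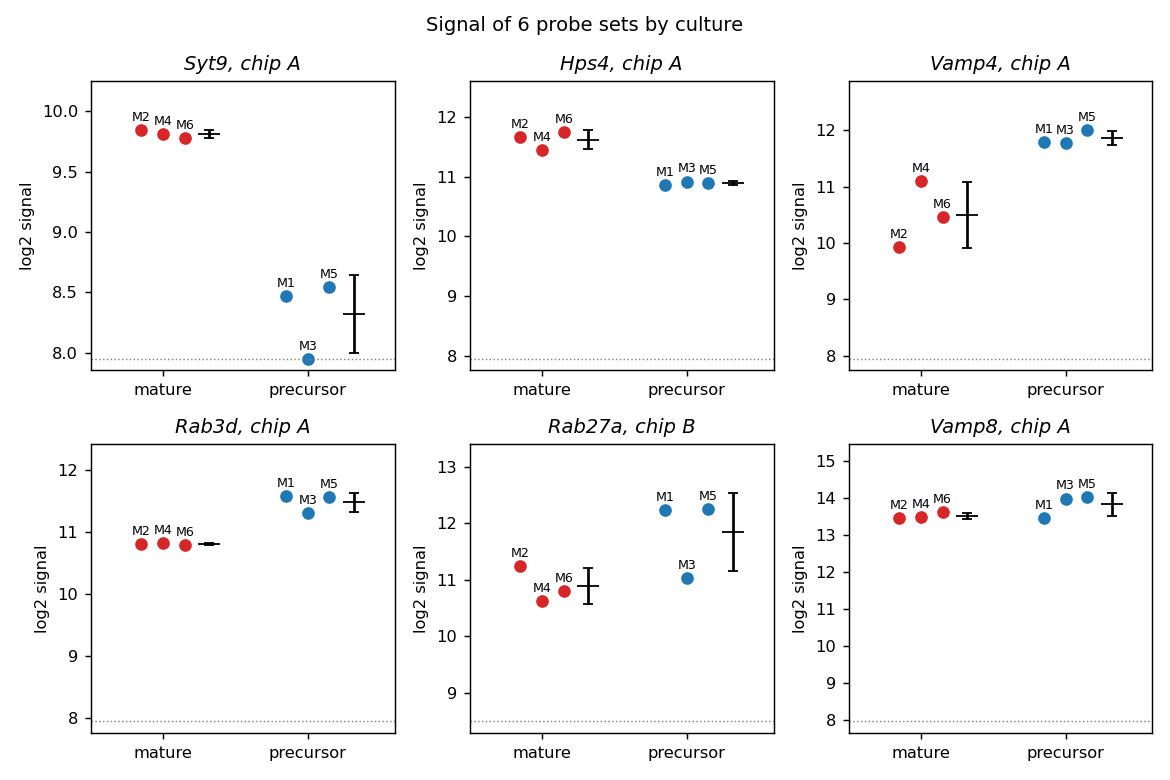
Log2 signal by culture of the 5 member sets with an unadjusted p under 0.05 and of Vamp8, mature cultures (red) left of precursors (blue), with mean and SD beside each group (n = 3) and the floor dotted. Syt9 and Hps4 lie higher in all mature cultures, Vamp4 and Rab3d lower in all, and Rab27a and Vamp8 overlap.

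Complexin and carrier proteins came next. Cplx2, which clamps and promotes assembled SNAREs in mast cells, had 6787, 3419 and 4100 units in the mature cultures, against 4204, 5490 and 5288 in the precursors, and differed by -0.12 (interval -0.74 to 0.50). Its chip A set differed by -0.34. Scamp1, of recycling carrier membranes, differed by -0.41 on chip A and by 0.70 on chip B. In the chip B set the mature cultures had 1062, 1055 and 1672 units, against 838, 498 and 1041 in the precursors, without overlap. M2 was the low culture of the chip A set, with 993 units.

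Of the granule biogenesis genes, Hps4 had the lowest p. Hps4 pairs with Hps1 in BLOC-3, the complex that activates Rab32 and Rab38. It had 3242, 2785 and 3455 units in the mature cultures, against 1865, 1937 and 1914 in the precursors. All mature values lay above all precursor values, a difference of 0.72 (SE 0.23, interval 0.22 to 1.23, adjusted p 0.388). Its partner Hps1 differed by 0.088 in its brightest set (interval -0.33 to 0.51) and by 0.38 and 0.45 in the others. Ap3b1, the AP-3 subunit mutated in pearl mice, differed by 0.067 and 0.29. Lyst, mutated in beige mice with giant granules, had 1062, 1048 and 2469 units in the mature cultures, against 2619, 912 and 1320 in the precursors, with M6 and M1, the 2 female cultures, highest. It differed by -0.066 (-1.03 to 0.90).

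The 5 sets with an unadjusted p under 0.05 were also compared within fluidics station and within sex. Where the groups do not overlap, as for all of these but Rab27a, the sign within a subset is fixed and the size alone can vary. The arrays were run on 2 fluidics stations, with M2 and M1 on the first and the other 4 cultures on the second. Vamp4 differed by -1.87 within the first and -1.10 within the second, Syt9 by 1.37 and 1.55, and Hps4 by 0.80 and 0.69. Rab3d differed by -0.77 and -0.62, and Rab27a on chip B by -0.99 and -0.94. Among males the differences were -1.37 for Vamp4, 1.58 for Syt9, 0.64 for Hps4, -0.61 for Rab3d and -0.71 for Rab27a. Between the 2 females they were -1.34, 1.30, 0.89, -0.78 and -1.43 in the same order. The first station and the females give 1 culture of each stage, so that these values carry the spread of single cultures.

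Sets of the same gene did not always go the same way. Among the 31 genes, 19 had several kept sets, of which 10 had all sets on the same side of 0 and 9 had sets on both sides. In all 19 the 95% intervals of the sets shared a value. The widest gap between sets was 1.53 on the log2 scale, in Rab27a, followed by 1.32 in Vamp4, 1.19 in Rab3d, 1.14 in Stx3 and 1.12 in Scamp1. Among the kept sets 10 were of the _x_at kind, whose probes can also bind other transcripts.

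**Figure D4:**
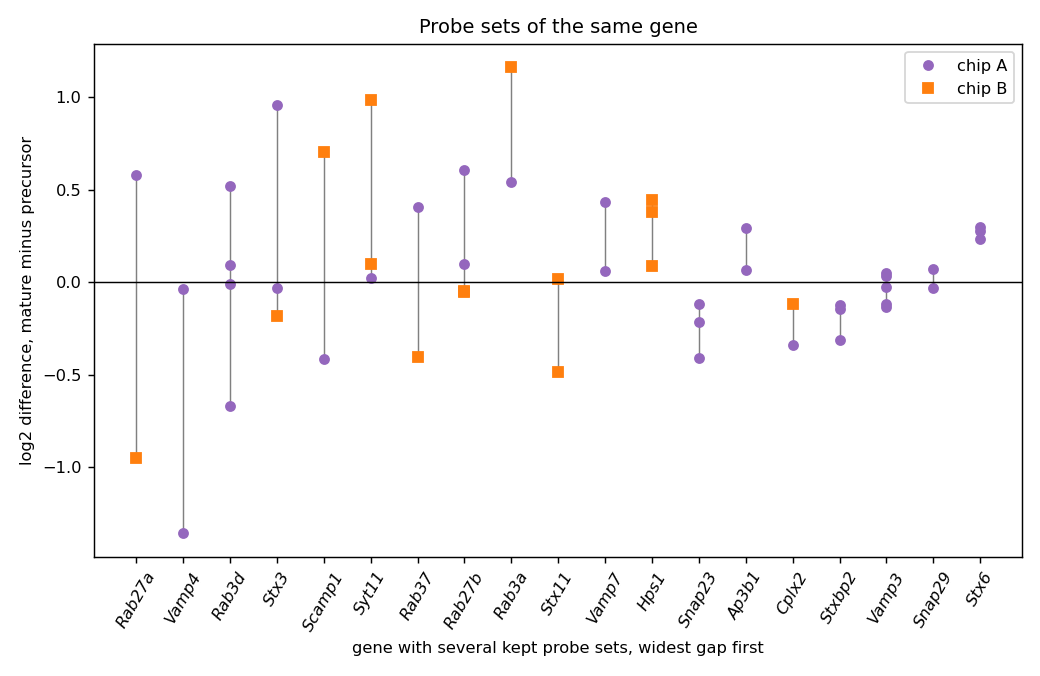
Log2 difference, mature minus precursor, of each kept probe set of the 19 members with several sets, widest gap first; circles are chip A and squares chip B. The sets of Rab27a, Rab3d, Stx3, Scamp1, Rab37, Rab27b, Stx11, Vamp3 and Snap29 lie on both sides of 0.

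The other genes of secretion were likewise not called. Of 126 such genes listed, 118 had sets and 94 passed the filter, with 169 kept sets, 0 of them called. The median difference was -0.0052, with 4 sets higher and 4 lower at an unadjusted p under 0.05, or 4.73% of the sets, against 6.59% of all sets of chip A and 6.42% of those of chip B. By list the medians were 0.077 for 21 other SNAREs, -0.0076 for 7 other SNARE regulators, 0.19 for 10 other synaptotagmins and priming factors, -0.0045 for 26 other Rabs and partners, -0.026 for 8 exocyst subunits and -0.0079 for 22 other biogenesis genes. Snap47, a SNAP-25-like SNARE, had the lowest p: 29208, 35742 and 26015 units in the mature cultures, against 18902, 13918 and 13986 in the precursors. The mature values all lay above the precursor values, with a difference of 0.96 (interval 0.45 to 1.47, adjusted p 0.145). Among biogenesis genes the AP-3 subunit Ap3s1 differed by -0.84 (adjusted p 0.360) and Bloc1s2 of BLOC-1 by -0.54, while Vps41 of the HOPS complex differed by 0.95 (adjusted p 0.595) and the AP-3 subunit Ap3m2 by 1.06. Gdi2, which extracts Rabs from membranes, differed by -0.86 in the set with its lowest p and by 0.056 in its brightest, and Rab32, the Rab that BLOC-3 activates, by -0.65. Rab14, of the Golgi and endosomes, differed by 0.75 in the set with its lowest p and 0.70 in its brightest, and Rabgef1, an activator of Rab5, by 0.43. The values of the exocyst subunits were 0.35 for Exoc3, 0.46 for Exoc4, -0.44 for Exoc2 and -0.39 for Exoc6. In the other lists the lowest p values belonged to Stx17 (0.49), Vti1a (-0.83), Stx18 (-0.49), Snapin (0.55), Cplx1 (0.43), Stxbp5 (-0.50), Txlna (-0.76), Rims1 (0.79), Syt13 (0.79), Syt8 (-0.55) and Syt14 (-0.73), each given as the log2 difference of its set with the lowest p, and none passed. The brightest set was another one for 4 of these genes, with a difference of -0.15 for Stx18, -0.14 for Snapin, -0.19 for Stxbp5 and 0.037 for Txlna. The 3 other kept sets of Vti1a lay above 0, at 0.43, 0.11 and 0.55.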

How the data were processed

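Total RNA of 6 cultures was read on 1 MOE430A and 1 MOE430B array each. The authors deposited 1 linear intensity for each probe set and array, made with MAS5 per the submitters' processing notes; its version and settings are not given in the sources used here. On every array the mean without the outer 2% of sets was about 1500. The instrument records deposited with the arrays (unit: other) gave only fluidics station and chip lot. The chips were fitted apart, since sets on both read a median 3.52-fold higher on chip B.

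Before log2, low values were raised to the 30th percentile of all values of that chip (247 for chip A, 359 for chip B), called the floor. Sets with at least 3 of 6 arrays above the table's median (582 and 864) were kept, 11576 of 22626 and 11880 of 22511. Mature minus precursor was tested with limma 3.58.1 in R 4.3.3 (lmFit, eBayes with an intensity trend, no covariate), two-sided, and adjusted by Benjamini-Hochberg over each chip, with a threshold of 0.05. The fit was tested on simulated data. Symbols came from the platform annotation, and all 36 members kept them in RefSeq.

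The members and gene lists were chosen with earlier results of these data known. Cultures' values are given for member sets with an unadjusted p under 0.05 or without overlap, and for at least 1 gene per subfamily; other values named, such as those of dim members, were chosen after they were seen. From the other pathway lists up to 2 genes per direction with the lowest p were named. Alternatives were other scalings, floors, filters, probe set rules, blocks and fits, and each culture left out.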

Additional observations from a re-analysis of the deposited data

How the results depend on the processing

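No member set passed the adjusted threshold under any of the 18 alternatives; the lowest adjusted p values in limma were 0.0512 for Syt9 with no intensity trend and 0.0592 for Vamp4 without mature M4. The median member difference of -0.026 was 0.020 with the mean of all sets of a gene, 0.023 over all kept sets, 0.018 with no filter and -0.13 in males only, and -0.073 to 0.021 with a culture left out. Its sign is therefore not fixed. Over the alternatives Vamp4 ran from -1.66 to -1.07, Hps4 from 0.64 to 0.81, Rab3d from -0.75 to -0.61, Rab27a on chip B from -1.36 to -0.71 and Rab3a from 0.54 to 2.04. Syt9 was 0.62 with the floor at the 50th percentile and 2.08 with no floor, and 5 of the 18 alternatives left it out of the test. Chip A's 61 called sets became 1 with no filter and 23 in males only. A block for the spike control, chosen after seeing the data, gave 39. The count rose to 80 with a sex block and 78 with array weights. With a culture left out it ran from 15 (without precursor M5) to 44, with 24 without M2, 25 without M1 and 40 without M3. Chip B's 11 became 4 with no floor, 17 with the higher floor, 0 with no filter, 5 with a filter on the mean signal, 17 with a sex block, 2 in males only, 3 with no trend, 7 with array weights and 6 with the spike block, and 1 to 8 with a culture left out. The 0 on chip B is limma's, and 1227 of its 22511 unfiltered sets had an unadjusted p under 0.05. Over both chips 5.45% of the unfiltered sets did, near the share that a threshold of 0.05 passes where nothing differs. The causes were not tested. No paired analysis was possible because the replicate numbers of the mature cultures (2, 4 and 6) are not shared with those of the precursors (1, 3 and 5).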
